A study of Mus musculus with 18 samples.

Results

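The comparison set cells harvested 20 h after the end of a dexamethasone pulse against cells harvested 8 h after it, times that lie 12 h apart and so at opposite points of a 24 h cycle. It rests on 4 of the 18 libraries of the series, 2 at 20 h and 2 at 8 h, which were chosen by the hour in their labels and were read across all genes. NIH3T3 cells, an established fibroblast line from mouse embryos, were exposed for 2 h to dexamethasone at 100 nM. This synthetic glucocorticoid brings the circadian clocks of a culture to a common phase. The change to normal culture medium at the end of the pulse was 0 h, and 2 libraries were sequenced every 4 h up to 32 h, which makes 9 times. The groups used here are 20 h, 24 h, 16 h, 12 h, 4 h, 32 h and 8 h. All of them share the cell line, the dexamethasone pulse and the medium change, and the labels give no other treatment and no genetic change. No untreated cells were analysed here, so within this comparison the phase of the clock and the time since the pulse cannot be told apart. The labels do not say whether the 2 libraries of a time came from separate cultures. The p-values measure only the spread between libraries of the same time, taken in the main fit from all 18 libraries. Libraries with the same replicate number deviated together across times, and the main fit did not use that pairing.

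The circadian clock of mammalian cells is a loop of transcription factors. ARNTL (BMAL1) with CLOCK activates genes through E-boxes, among them the Per and Cry genes, whose proteins then repress ARNTL and CLOCK. The nuclear receptors REV-ERB alpha and beta (Nr1d1 and Nr1d2), themselves E-box genes, repress Arntl, and the PAR bZIP factors DBP, TEF and HLF carry the rhythm to further genes through D-boxes. Cultured fibroblasts keep this loop running after a synchronizing stimulus, and glucocorticoid also induces Per1 directly.

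Levels are normalized reads, that is reads per gene divided by a depth factor of the library, given as replicate 1 and replicate 2 (n = 2 at each time). Log2 changes are 20 h minus 8 h ± SE on the log2(value + 1) scale. That scale makes changes of low genes look smaller than they are. A gene passed at a Benjamini-Hochberg adjusted p under 0.05 in limma. Statements that groups did not overlap only describe the libraries and are not a test. With 2 libraries at each time, groups often separate without a difference. The share of all tested genes without overlap is not given here. The 20 h libraries held 33.5 and 32.0 M reads in genes, and the 8 h libraries 34.7 and 27.7 M. Their normalized totals were 30.4 and 30.6 M at 20 h, against 31.6 and 31.8 M at 8 h, so the totals moved with the groups. Of 21937 genes in the table, 12393 reached a mean of 10 normalized reads over the 18 libraries and were tested.

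Between 20 h and 8 h, 2100 of the 12393 tested genes (16.9%) differed. Of these, 1056 (8.52%) were higher and 1044 (8.42%) were lower at 20 h. Most of the differences were small: their median size was 0.37 on the log2 scale, a 1.29-fold change, and 79.5% were under 1.5-fold. Changes of at least 2-fold were found in 35 genes that were higher (0.282%) and in 70 that were lower (0.565%). The count depended on single libraries: it was 751 without 20 h replicate 2, 916 and 1385 without replicate 1 or 2 of 8 h. It was 1309 with only the 4 libraries in the fit and 4047 with the replicate number as a block. With equal library totals in place of the deposited scaling, 1681 genes were higher and 673 lower, a share of 71.4% higher against 50.3%.

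**Figure D1:**
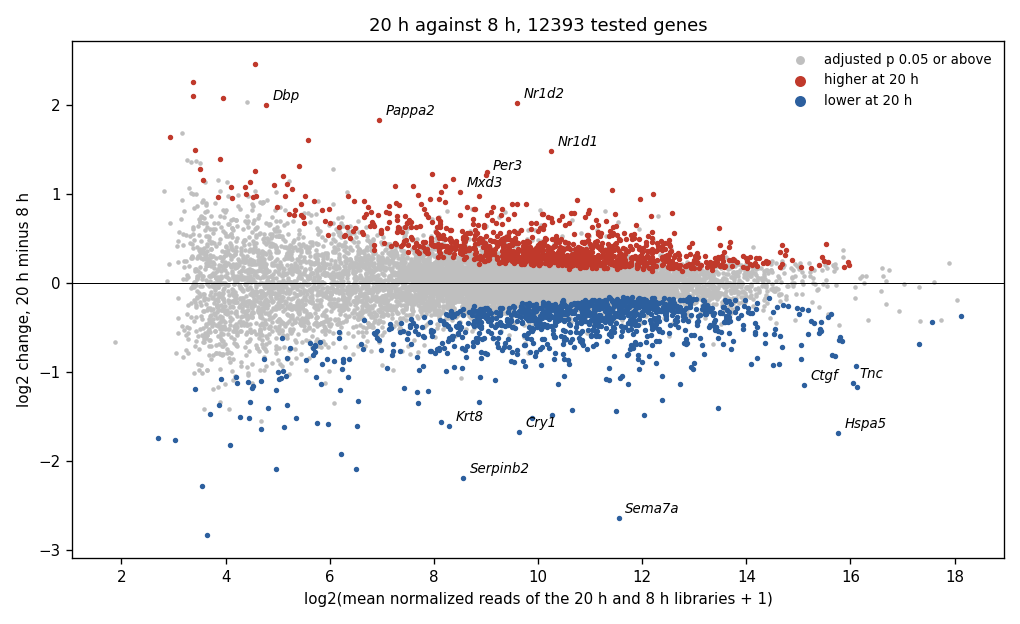
Log2 change at 20 h minus 8 h (vertical axis) against the mean level of the 20 h and 8 h libraries on the log2(mean normalized reads + 1) scale, 1 point for each of the 12393 tested genes. Red points are the 1056 genes higher at 20 h, blue points the 1044 lower and grey points those at an adjusted p of 0.05 or above. Among the passing genes with a mean of at least 50, Nr1d2 (2.02) is the highest and Sema7a (-2.63) the lowest.

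The promoters of 7 of the 9 clock genes that passed are shown first, since these genes stand at the centre of the comparison and differ in which clock elements their start regions hold. They are the 5 highest and the lower ones with a promoter in the table, so that Per1 and Bhlhe40 are not shown. Each runs from 250 bases before to 50 after the gene's start in RefSeq (build GRCm38.p6, whereas the submitters' processing notes name mm9). Capitals mark matches on either strand to the E-box CACGTG, the D-box TTATGTAA or TTATGCAA, or the REV-ERB/ROR response element.
Nr1d2 (chr14:18239057-18239356, minus strand, no match): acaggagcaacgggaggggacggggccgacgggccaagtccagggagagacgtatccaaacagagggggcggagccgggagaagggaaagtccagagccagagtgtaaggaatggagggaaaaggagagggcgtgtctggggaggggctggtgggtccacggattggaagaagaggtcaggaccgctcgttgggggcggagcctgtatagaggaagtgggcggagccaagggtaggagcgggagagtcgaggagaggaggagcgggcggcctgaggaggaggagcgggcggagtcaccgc
Dbp (chr7:45704997-45705296, plus strand, no match): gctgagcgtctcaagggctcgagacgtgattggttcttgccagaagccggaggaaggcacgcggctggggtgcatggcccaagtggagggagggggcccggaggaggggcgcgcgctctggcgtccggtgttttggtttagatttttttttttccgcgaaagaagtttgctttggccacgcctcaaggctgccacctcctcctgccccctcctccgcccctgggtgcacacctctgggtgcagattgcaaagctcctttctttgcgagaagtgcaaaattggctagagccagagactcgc
Nr1d1 (chr11:98775328-98775627, minus strand, no match): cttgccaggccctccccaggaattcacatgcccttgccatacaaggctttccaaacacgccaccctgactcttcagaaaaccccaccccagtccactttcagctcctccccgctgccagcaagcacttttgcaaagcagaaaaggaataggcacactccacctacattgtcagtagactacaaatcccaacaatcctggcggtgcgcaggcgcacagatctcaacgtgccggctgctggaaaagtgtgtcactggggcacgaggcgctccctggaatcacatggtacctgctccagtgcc
Per3 (chr4:151044616-151044915, minus strand, D-boxes): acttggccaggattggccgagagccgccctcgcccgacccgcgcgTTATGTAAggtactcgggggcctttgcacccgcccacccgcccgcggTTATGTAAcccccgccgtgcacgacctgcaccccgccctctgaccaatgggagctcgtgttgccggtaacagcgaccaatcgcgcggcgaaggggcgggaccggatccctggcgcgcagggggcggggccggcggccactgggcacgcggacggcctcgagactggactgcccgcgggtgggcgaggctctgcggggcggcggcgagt
Tef (chr15:81802423-81802722, plus strand, E-box): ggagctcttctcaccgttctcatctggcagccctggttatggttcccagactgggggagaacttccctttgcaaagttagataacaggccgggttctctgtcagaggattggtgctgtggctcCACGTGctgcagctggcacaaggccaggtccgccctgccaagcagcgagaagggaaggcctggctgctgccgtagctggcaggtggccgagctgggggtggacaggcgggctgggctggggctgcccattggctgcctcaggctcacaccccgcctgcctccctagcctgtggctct
Cry1 (chr10:85185005-85185304, minus strand, E-box): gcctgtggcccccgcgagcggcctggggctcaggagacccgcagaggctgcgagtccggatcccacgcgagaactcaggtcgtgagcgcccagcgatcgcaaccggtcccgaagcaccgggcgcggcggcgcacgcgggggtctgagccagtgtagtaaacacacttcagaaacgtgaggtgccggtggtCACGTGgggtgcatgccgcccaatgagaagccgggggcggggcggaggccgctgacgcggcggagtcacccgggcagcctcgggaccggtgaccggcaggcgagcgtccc
Arntl (chr7:113207261-113207560, plus strand, REV-ERB/ROR response element): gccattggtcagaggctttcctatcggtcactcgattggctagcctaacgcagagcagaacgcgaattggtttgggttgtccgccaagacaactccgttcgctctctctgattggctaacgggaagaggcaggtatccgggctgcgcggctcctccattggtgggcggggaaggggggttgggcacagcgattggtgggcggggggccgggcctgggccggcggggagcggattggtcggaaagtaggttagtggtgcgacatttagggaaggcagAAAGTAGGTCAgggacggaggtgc

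Per3 had 2 matches to the D-box, at bases -205 to -198 and -158 to -151 from the start site. The E-box of Cry1 lay at -60 to -55 and that of Tef at -127 to -122, and a second start of Tef had an E-box at -138 to -133. Arntl had its match at 27 to 37 bases after the second of its 2 annotated starts. The window of the first start, which is not shown, held no match. The 9782 tested genes with a promoter in the table matched 9747 RefSeq genes, since some symbols of the table lead to the same RefSeq gene. Over these 9747 the E-box was found in 11.8%, the D-box in 1.28% and the REV-ERB/ROR element in 0.215%. Over all 32851 promoters the shares were 7.15%, 1.66% and 0.384%. These last shares count promoters rather than genes, and a gene can have several promoters. A window without a match says only that these letters are not in those 300 bases.

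The clock genes did not all move the same way over the 12 h: the REV-ERB genes, Per3, Per1, Dbp and Tef were higher at 20 h, while Cry1, Bhlhe40 and Arntl were lower. Of the 6 tested members of the list of core activators and nuclear receptors, 2 were higher and 1 lower. Of 9 clock repressors, 2 were higher and 2 lower, and of 6 PAR bZIP factors and clock outputs, 2 were higher. Over all tested genes 8.52% were higher and 8.42% lower. Npas2, Rora and Rorb, with no more than 2.02 normalized reads in any library at 20 h, 8 h or 32 h, were below the minimum for testing.

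Nr1d2, which encodes REV-ERB beta, had 1225 and 1241 normalized reads at 20 h, against 325 and 282 at 8 h. Both 20 h libraries stood far above both 8 h libraries, and the change of 4.07-fold (log2 change 2.02 ± 0.11, adjusted p = 2.8e-07) had the smallest p of all tested genes. Nr1d1, which encodes REV-ERB alpha, had 1642 and 1937 normalized reads at 20 h, against 711 and 569 at 8 h. The groups did not overlap, and the gene was 2.80-fold higher at 20 h (log2 change 1.49 ± 0.16, adjusted p = 5.5e-05). Arntl, the partner of CLOCK and a target of both receptors, had 776 and 768 normalized reads at 20 h, against 984 and 1000.0 at 8 h. It was lower in both 20 h libraries, by a modest amount (log2 change -0.36 ± 0.09, adjusted p = 0.013), and the call was lost without 20 h replicate 2 (adjusted p = 0.085) or without either 8 h library (adjusted p = 0.061 for each). Clock had 2393 and 2191 normalized reads at 20 h, against 2497 and 2578 at 8 h and did not pass (log2 change -0.15 ± 0.06, adjusted p = 0.12). Arntl2 did not pass either (log2 change 0.21 ± 0.14, adjusted p = 0.32).

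The period genes differed among themselves. Per3 had 667 and 772 normalized reads at 20 h, against 329 and 289 at 8 h, and both 20 h libraries were above both 8 h libraries (log2 change 1.22 ± 0.16, adjusted p = 2.2e-04). Per1, which is also a direct glucocorticoid target, had 4121 and 4319 normalized reads at 20 h, against 2981 and 2977 at 8 h. The gene was higher in both 20 h libraries, by a smaller step than Per3 (log2 change 0.50 ± 0.08, adjusted p = 0.0012). Per2 had 609.8 and 664 normalized reads at 20 h, against 704 and 835 at 8 h, levels that lay close together (log2 change -0.27 ± 0.20, adjusted p = 0.39). Between these times lay a trough: Per2 had 165 and 181 at 12 h and 209 and 166 at 16 h, so it was on its way down at 8 h and on its way up at 20 h.

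The cryptochromes, the main partners of the PER proteins in repression, were lower or did not pass. Cry1 had 419 and 336 normalized reads at 20 h, against 1095 and 1309 at 8 h. Both 20 h libraries were far below both 8 h libraries, 3.18-fold lower (log2 change -1.67 ± 0.17, adjusted p = 3.6e-05), and this was the clock gene with the deepest fall. Cry2 had 592 and 649 normalized reads at 20 h, against 809.9 and 786 at 8 h, without overlap of the groups but without passing (log2 change -0.36 ± 0.12, adjusted p = 0.056). Its adjusted p was 0.015 with the replicate number as a block, 0.032 with DESeq2, 0.038 with only the libraries compared and 0.049 with quantile normalization. Bhlhe40 (DEC1), a repressor that competes for E-boxes, had 698 and 666 normalized reads at 20 h, against 1236 and 1098 at 8 h and was lower in both 20 h libraries (log2 change -0.77 ± 0.10, adjusted p = 2.8e-04). Nfil3, a repressor that binds D-boxes, had 1399 and 1586 normalized reads at 20 h, against 1208 and 1393 at 8 h and did not pass (log2 change 0.20 ± 0.11, adjusted p = 0.24), with an adjusted p of 0.015 under the replicate block. Bhlhe41 (log2 change -0.16 ± 0.34, adjusted p = 0.79) and Gm129, the table's symbol for Ciart (log2 change -0.06 ± 0.28, adjusted p = 0.91), had overlapping groups and did not pass.

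Among the D-box factors, Dbp had the largest change and the lowest counts. It had 34.5 and 50.6 normalized reads at 20 h, against 7.28 and 12.6 at 8 h, with both 20 h libraries higher (log2 change 2.01 ± 0.46, adjusted p = 0.0097), and the call was lost without 20 h replicate 2 (adjusted p = 0.099) or without 8 h replicate 1 (adjusted p = 0.093). Tef had 2942 and 3300.0 normalized reads at 20 h, against 1899 and 1918 at 8 h, again without overlap (log2 change 0.71 ± 0.11, adjusted p = 0.001). Hlf had 1020.5 and 1336 normalized reads at 20 h, against 602 and 976 at 8 h. Its replicates were far apart at each time and it did not pass (log2 change 0.61 ± 0.32, adjusted p = 0.22). In the fit with the replicate number as a block, which removes the difference between replicate 1 and replicate 2, Hlf passed with an adjusted p of 2.9e-05. Usp2 (log2 change 0.33 ± 0.14, adjusted p = 0.13) and Wee1 (log2 change 0.19 ± 0.07, adjusted p = 0.094) did not pass either, but did with that block (adjusted p = 0.043 for Usp2 and 0.023 for Wee1). Wee1 also passed with equal totals (log2 change 0.25, adjusted p = 0.025). Nampt, whose enzyme makes a precursor of NAD, did not pass (log2 change -0.16 ± 0.07, adjusted p = 0.16). The cold-inducible RNA-binding protein genes Cirbp (log2 change -0.01 ± 0.10, adjusted p = 0.97) and Rbm3 (log2 change -0.10 ± 0.10, adjusted p = 0.54), which can follow the temperature of a culture, had overlapping groups.

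**Figure D2:**
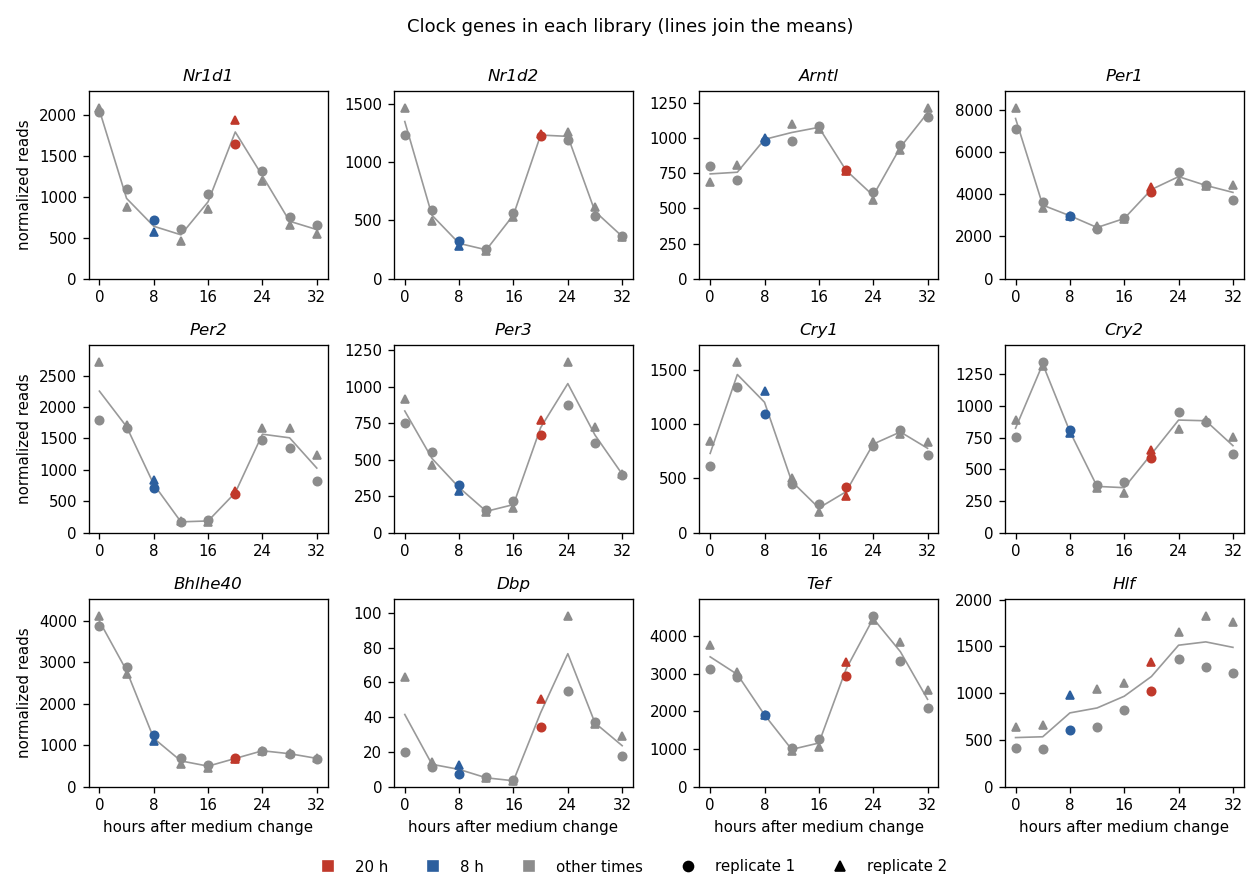
Normalized reads of 12 clock genes (vertical axes, each from 0) against hours after the medium change, 1 point for each library, circles for replicate 1 and triangles for replicate 2. Red marks 20 h, blue 8 h and grey the other times, and lines join the means of the 2 libraries. Nr1d1 and Nr1d2 are near a maximum at 20 h and near a minimum at 8 h, Cry1 is near a minimum at 20 h, and Per2 has similar levels at both times with a trough between them.

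Whether the 20 h against 8 h contrast was typical of intervals of 12 h was asked by testing its difference from the neighbouring interval on each side. These comparisons share no libraries with it. The change differed from that of 24 h against 12 h in 9 genes (0.0726% of those tested), and 6 of them were clock genes. The change differed from that of 16 h against 4 h in 349 genes (2.82%), 239 with a higher difference (1.93%) and 110 with a lower one (0.888%), a split that turned to 141 higher and 353 lower with equal totals. With the replicate block the counts were 148 and 1519. Without single libraries they were 6 to 12 and 120 to 276, the second being 120 without 20 h replicate 2. It was 128 and 185 without replicate 2 or 1 of 8 h, 138 and 129 without replicate 2 or 1 of 16 h, and 144 without replicate 2 of 4 h. With only the libraries compared in the fit, the second count was 114.

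Of the 9 genes that differed from 24 h against 12 h, Per2 had the largest difference. It changed by 3.17 on the log2 scale at 24 h against 12 h and by -3.17 at 16 h against 4 h, against -0.27 at 20 h against 8 h. It had 1472 and 1662 normalized reads at 24 h and 165 and 181 at 12 h, and 209 and 166 at 16 h against 1662 and 1712 at 4 h. The difference of the 20 h against 8 h change from the later interval was -3.44 ± 0.28, adjusted p = 9.1e-05, and that from the earlier interval 2.90 ± 0.28, adjusted p = 1.1e-04. Cry1 turned its sign: it was lower at 20 h than at 8 h, yet had 798 and 835 at 24 h against 445 and 501 at 12 h, a change of 0.79. The difference for Cry1 was -2.46 ± 0.24, adjusted p = 3.6e-04 from the later interval and 1.01 ± 0.24, adjusted p = 0.036 from the earlier one, where the gene changed by -2.68.

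Cry2 (-1.64 ± 0.17, adjusted p = 7.1e-04), Per3 (-1.56 ± 0.22, adjusted p = 0.011), Tef (-1.46 ± 0.16, adjusted p = 8.1e-04) and Bhlhe40 (-1.26 ± 0.15, adjusted p = 0.0015) also had a lower change at 20 h against 8 h than at 24 h against 12 h. Tef had 4523 and 4415 at 24 h against 1023 and 960.3 at 12 h, a change of 2.17 against 0.71 at 20 h against 8 h. Cry2 changed by 1.28 at 24 h against 12 h and by -0.36 at 20 h against 8 h, and Bhlhe40 by 0.49 and -0.77, so that the sign of the change differed in both. The call of Per3 was lost in 5 fits, among them those without replicate 1 of 20 h (adjusted p = 0.11), replicate 1 of 8 h (0.092), replicate 2 of 24 h (0.082) and replicate 2 of 12 h (0.086). Outside the clock genes, Hspa5, the endoplasmic reticulum chaperone BiP, fell further at 20 h against 8 h than at 24 h against 12 h (-1.17 ± 0.15, adjusted p = 0.004). It had 25869 and 28060.5 normalized reads at 24 h and 40119.6 and 36732 at 12 h. Masp1, a complement protease (0.71 ± 0.11, adjusted p = 0.026), and Tcf19, a gene of cycling cells (0.68 ± 0.11, adjusted p = 0.024), had a higher change at 20 h against 8 h. Both calls were lost in several fits, among them that with only the libraries compared (adjusted p = 0.11 for Masp1 and 0.27 for Tcf19) and those without replicate 2 of 20 h (0.14 for each) or replicate 1 of 8 h (0.11 and 0.13).

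For the REV-ERB genes the difference from the later interval did not pass (-0.27 ± 0.15, adjusted p = 0.84 for Nr1d2 and 0.25 ± 0.22, adjusted p = 0.96 for Nr1d1). Nr1d2 changed by 2.30 at 24 h against 12 h and by 2.02 at 20 h against 8 h, while its change at 16 h against 4 h was 0.01. The difference from that earlier interval passed, with 2.01 ± 0.15, adjusted p = 2.0e-05 for Nr1d2 and 1.55 ± 0.22, adjusted p = 0.0023 for Nr1d1. Dbp (3.65 ± 0.65, adjusted p = 0.0095), Gm129 (2.31 ± 0.40, adjusted p = 0.0084) and Tef (2.07 ± 0.16, adjusted p = 2.0e-05) also had a higher change than at 16 h against 4 h. The same held for Bhlhe40 (1.72 ± 0.15, adjusted p = 3.8e-05), Cry2 (1.55 ± 0.17, adjusted p = 4.2e-04), Per3 (2.62 ± 0.22, adjusted p = 3.8e-05) and Per1 (0.79 ± 0.12, adjusted p = 0.0025). Arntl had a lower one (-0.87 ± 0.12, adjusted p = 0.0023): it changed by 0.51 at 16 h against 4 h. Of the 9 clock repressors, 7 had a higher change at 20 h against 8 h than at 16 h against 4 h. The share over all tested genes was 1.93%. The calls of Cry1 and Dbp in this comparison were lost in several fits, with an adjusted p of 0.14 for Cry1 without 16 h replicate 2 and of 0.055 for Dbp without 20 h replicate 2.

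**Figure D3:**
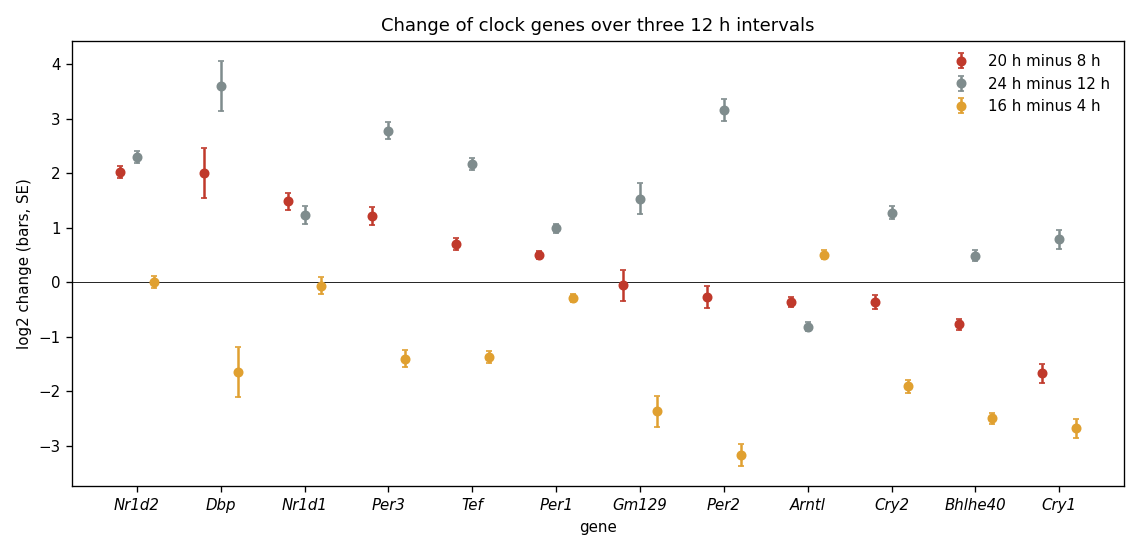
Log2 change ± SE (vertical axis) of 12 clock genes over 3 intervals of 12 h, red for 20 h minus 8 h, grey for 24 h minus 12 h and yellow for 16 h minus 4 h. Per2 is near 0 in red (-0.27) between 3.17 in grey and -3.17 in yellow, and Nr1d2 is near 2 in red and grey and near 0 in yellow.

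Several genes outside the clock also stood apart from the 16 h against 4 h interval. Nppb, which encodes a natriuretic peptide, had 201 and 314 normalized reads at 20 h, against 503 and 469 at 8 h. It had 225 and 318 at 16 h against 2287 and 2373 at 4 h, and the difference was 2.17 ± 0.33, adjusted p = 0.0035. Cdh18, a cadherin, had 423 and 588 at 16 h against 110.5 and 127 at 4 h, while at 20 h and 8 h its libraries overlapped (-1.77 ± 0.38, adjusted p = 0.023). Tlr3, the receptor for double-stranded RNA (-1.28 ± 0.19, adjusted p = 0.0023), Eml6 (-1.11 ± 0.17, adjusted p = 0.0037) and Sema5a, a semaphorin (-1.16 ± 0.27, adjusted p = 0.034), had a lower change as well. The calls of Cdh18 and Sema5a were lost in 7 fits each, with adjusted p up to 0.10 for Cdh18 (without replicate 2 of 16 h) and 0.16 for Sema5a (without replicate 2 of 20 h). In Tlr3, Cdh18 and Eml6 it was the 4 h libraries that were low in that interval, with 73.7 and 63.1 normalized reads of Tlr3, against 156 and 174 at 16 h.

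To set 20 h against the times 12 h before and 12 h after it, 20 h was compared with the mean of 8 h and 32 h. Here 298 genes differed (2.4%), 163 of them higher (1.32%) and 135 lower (1.09%). The count was 66 and 28 when replicate 1 or replicate 2 of 20 h was left out. It was 121 and 113 without replicate 1 or 2 of 32 h, 184 and 167 without replicate 1 or 2 of 8 h, and 1333 with the replicate block. With equal totals 238 genes were higher and 108 lower. This comparison shares the 20 h and 8 h libraries with the first, so its values are given beside the others without a count of common genes.

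The highest gene by this measure was again Nr1d2 (1.89 ± 0.09, adjusted p = 9.9e-08), with 369 and 358 normalized reads at 32 h. Nr1d1 (1.53 ± 0.14, adjusted p = 9.6e-05), Per3 (1.03 ± 0.14, adjusted p = 0.0023) and Tef (0.57 ± 0.10, adjusted p = 0.0085) were also higher, and Cry1 (-1.36 ± 0.15, adjusted p = 6.5e-04), Arntl (-0.49 ± 0.08, adjusted p = 0.0044) and Bhlhe40 (-0.39 ± 0.09, adjusted p = 0.039) lower. Nr1d1 had 651 and 548 at 32 h, close to its 8 h level, whereas Bhlhe40 had 678 and 689 at 32 h, close to its 20 h level. Per1 (0.28 ± 0.07, adjusted p = 0.056) and Dbp (1.43 ± 0.40, adjusted p = 0.08) did not pass. Per1 had 3724 and 4444 at 32 h, a range that takes in both 20 h libraries. The remaining highest genes were Mxd3, a MAX dimerization protein expressed in dividing cells (0.72 ± 0.11, adjusted p = 0.0034), and Ankle1, an endonuclease (0.64 ± 0.15, adjusted p = 0.039). The remaining lowest were Hspa5 (-1.03 ± 0.09, adjusted p = 9.6e-05), Creld2 (-0.90 ± 0.10, adjusted p = 9.7e-04) and Sdf2l1 (-0.85 ± 0.13, adjusted p = 0.0034), whose proteins work in the endoplasmic reticulum. Apol8 (-0.95 ± 0.23, adjusted p = 0.044) and Krt8 (-0.77 ± 0.15, adjusted p = 0.016) completed them. Without 20 h replicate 2 the calls of Per3, Tef, Mxd3, Ankle1, Arntl, Bhlhe40, Apol8, Sdf2l1 and Krt8 were lost (adjusted p from 0.055 to 0.28).

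Genes of mitosis had the largest share of members higher at 20 h among the 37 lists. Of 39 tested members of the mitosis list, 37 were higher at 20 h and none lower, with a median log2 change of 0.42, against 8.52% of all tested genes higher and a median of -0.002 over all of them. The count was 31 to 35 when single libraries were left out. Their summed level was 210179 and 203687 normalized reads at 20 h, against 158664 and 152316 at 8 h. In bulk RNA of a culture, more cells in mitosis and more of these RNAs per cell cannot be told apart.

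Cdca3, a trigger of mitotic entry, had 1490.3 and 1571 normalized reads at 20 h, against 958 and 931 at 8 h, without overlap (log2 change 0.70 ± 0.06, adjusted p = 1.7e-05). Ube2c, the ubiquitin-conjugating enzyme of the anaphase-promoting complex, had 3043 and 3169 normalized reads at 20 h, against 2169 and 2137 at 8 h (log2 change 0.53 ± 0.05, adjusted p = 4.2e-05). Kif11, the spindle motor Eg5, had 6188 and 6026 normalized reads at 20 h, against 4303 and 4471 at 8 h (log2 change 0.48 ± 0.05, adjusted p = 5.5e-05). All 3 were higher in both 20 h libraries by less than 2-fold. Cenpa, the histone of centromeres (log2 change 0.49 ± 0.06, adjusted p = 8.0e-05), and Mki67, the proliferation marker Ki-67 (log2 change 0.62 ± 0.09, adjusted p = 4.4e-04), were higher as well. So were Plk1 (log2 change 0.49 ± 0.09, adjusted p = 0.0019) and Ccnb1, cyclin B1 (log2 change 0.37 ± 0.05, adjusted p = 2.7e-04). The kinase gene Ttk (log2 change 0.22 ± 0.09, adjusted p = 0.11) and Tpx2 (log2 change 0.19 ± 0.07, adjusted p = 0.067) did not pass. At 20 h against the mean of 8 h and 32 h, 1.32% of all tested genes were higher. Against the mean of 8 h and 32 h, 30 of the 39 were higher, a count that was 7 and 2 when replicate 1 or replicate 2 of 20 h was left out. It was 18 and 13 without replicate 1 or 2 of 32 h, and 19 without replicate 2 of 8 h. The median difference of the 39 genes from the 24 h against 12 h change was 0.10, and that from the 16 h against 4 h change was 0.04.

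The promoters of the mitosis genes with the smallest p are shown because many promoters of this list share the cell cycle element CHR, with the letters TTTGAA. Capitals mark it on either strand, TTCAAA being the match on the opposite one.
Cdca3 (chr6:124829926-124830225, plus strand): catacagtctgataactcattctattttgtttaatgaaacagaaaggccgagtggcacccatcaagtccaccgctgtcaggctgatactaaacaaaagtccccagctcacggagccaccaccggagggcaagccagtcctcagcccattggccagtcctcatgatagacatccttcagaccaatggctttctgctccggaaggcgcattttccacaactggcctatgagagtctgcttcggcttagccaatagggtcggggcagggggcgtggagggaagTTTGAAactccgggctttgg
Ube2c (chr2:164769679-164769978, plus strand): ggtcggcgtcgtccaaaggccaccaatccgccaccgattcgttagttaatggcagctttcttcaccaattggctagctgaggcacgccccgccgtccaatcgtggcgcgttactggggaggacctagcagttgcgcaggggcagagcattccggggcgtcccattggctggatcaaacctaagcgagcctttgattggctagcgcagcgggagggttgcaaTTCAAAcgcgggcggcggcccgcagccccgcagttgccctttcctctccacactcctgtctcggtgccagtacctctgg
Kif11 (chr19:37376132-37376431, plus strand): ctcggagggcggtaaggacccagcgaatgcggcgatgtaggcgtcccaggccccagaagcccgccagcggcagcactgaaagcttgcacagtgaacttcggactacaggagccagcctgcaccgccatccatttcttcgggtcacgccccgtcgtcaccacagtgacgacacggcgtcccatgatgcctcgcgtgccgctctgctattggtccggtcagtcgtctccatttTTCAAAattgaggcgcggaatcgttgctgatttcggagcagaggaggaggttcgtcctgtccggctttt

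The element lay 31 to 36 bases after the start of Cdca3, at -29 to -24 in Ube2c and at -19 to -14 in Kif11. It was found in 24 of the 32 mitosis genes with a promoter (75%), against 14.2% of the 9747 RefSeq genes matched. Counted per promoter rather than per gene, it was in 17.9% of all 32851 promoters. Of the genes higher at 20 h than at 8 h, 21.0% of 872 with a promoter held it, and of the lower ones 10.8% of 804. Among those higher against the mean of 8 h and 32 h it was 37.3% of 134. The E-box was present in 11.6% of the genes higher at 20 h and 16.3% of the lower ones. These shares describe letters in a window and were not tested.

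Of 41 tested DNA replication genes, 15 were higher and none lower (8.52% of all tested genes were higher), with a median log2 change of 0.18, and the count was 8 to 12 without single libraries and 24 with the replicate block. Lig1, the replicative DNA ligase, had 4013 and 3983 normalized reads at 20 h, against 3055 and 2916 at 8 h (log2 change 0.42 ± 0.06, adjusted p = 3.6e-04). Both 20 h libraries were higher. Pola1 of the primase complex (log2 change 0.38 ± 0.07, adjusted p = 0.002) and the helicase subunits Mcm6 (log2 change 0.32 ± 0.06, adjusted p = 0.0022) and Mcm7 (log2 change 0.32 ± 0.06, adjusted p = 0.0035) were also higher. Mcm2 (log2 change 0.08 ± 0.06, adjusted p = 0.44), Pcna (log2 change 0.18 ± 0.07, adjusted p = 0.091) and the G1/S cyclin Ccne1 (log2 change 0.13 ± 0.07, adjusted p = 0.22) did not pass. Against the mean of 8 h and 32 h, 7 were higher, with counts from 0 without either 20 h library to 24 with the replicate block. By that measure 1.32% of all tested genes were higher. The E2F site, TTTGGCGC or TTTCGCGC on either strand, was found in 11 of 35 promoters of this list (31.4%), against 1.85% of the RefSeq genes matched.

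Of 15 tested genes for D cyclins, CDK inhibitors and p53 targets, 6 were higher and none lower, against 8.52% and 8.42% of all tested genes. The higher count was 2 to 4 without single libraries and 12 with the replicate block. Cdkn2c, which encodes the inhibitor p18, had 1439 and 1478 normalized reads at 20 h, against 786 and 958 at 8 h (log2 change 0.75 ± 0.13, adjusted p = 0.0015). Cdkn1a, which encodes p21, had 5223 and 4906 normalized reads at 20 h, against 4089 and 3801 at 8 h (log2 change 0.36 ± 0.08, adjusted p = 0.0073). Neither gene's groups overlapped. Cdkn1b, which encodes p27 (log2 change 0.43 ± 0.12, adjusted p = 0.027), Ccng1 (log2 change 0.47 ± 0.11, adjusted p = 0.013), Sesn1 (log2 change 0.52 ± 0.16, adjusted p = 0.035) and Sesn2 (log2 change 0.35 ± 0.08, adjusted p = 0.012) were higher too. The call of Cdkn1a was lost without replicate 1 of 20 h or replicate 2 of 8 h (adjusted p = 0.052 and 0.056), that of Ccng1 without replicate 1 of 20 h or of 8 h (0.086 and 0.15), and that of Sesn2 without replicate 2 of 20 h or of 8 h (0.085 and 0.068). Of 6 tested replication-dependent histone genes, Hist1h2bc was lower (log2 change -0.93 ± 0.28, adjusted p = 0.037), a call lost without 20 h replicate 1 or 2 or 8 h replicate 2. Polyadenylated RNA holds little of most histone transcripts, and the labels do not say how the RNA was selected.

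Chaperones of the endoplasmic reticulum had the largest share of members lower at 20 h among the lists. Of 22 tested members, 20 were lower at 20 h and none higher, against 8.42% of all tested genes lower, with a median log2 change of -0.77. Leaving out single libraries gave 17 to 19. The summed level was 288580 and 282727 normalized reads at 20 h, against 533155 and 507601 at 8 h. Hspa5 (BiP), the main chaperone of that compartment, had 26440.0 and 26094 normalized reads at 20 h, against 86436 and 81640.4 at 8 h. Both 20 h libraries were about the same and 3.20-fold below the 8 h level (log2 change -1.68 ± 0.11, adjusted p = 1.5e-06). Hyou1, a partner of BiP, had 6329 and 6078 normalized reads at 20 h, against 16983 and 15691 at 8 h (log2 change -1.40 ± 0.10, adjusted p = 6.3e-06). Manf, a secreted stress protein, had 2888 and 3259 normalized reads at 20 h, against 7086 and 8217 at 8 h (log2 change -1.31 ± 0.10, adjusted p = 6.3e-06). Hsp90b1 (GRP94) had 44615 and 43455 normalized reads at 20 h, against 103102 and 94124 at 8 h (log2 change -1.16 ± 0.09, adjusted p = 7.4e-06). In each of them the 20 h libraries lay below the 8 h libraries without overlap. Creld2 (log2 change -1.48 ± 0.12, adjusted p = 7.4e-06), Sdf2l1 (log2 change -1.48 ± 0.15, adjusted p = 3.3e-05) and the transcription factor gene Xbp1 (log2 change -1.04 ± 0.14, adjusted p = 3.3e-04) were lower as well. So were the disulfide isomerase gene Pdia4 (log2 change -0.96 ± 0.08, adjusted p = 1.3e-05), Sel1l (log2 change -0.68 ± 0.06, adjusted p = 2.4e-05) and the lectin chaperone gene Canx (log2 change -0.43 ± 0.09, adjusted p = 0.0048). Sec61b (log2 change -0.05 ± 0.09, adjusted p = 0.75) and Dnajc10 (log2 change -0.12 ± 0.05, adjusted p = 0.12) did not pass.

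The fall was already under way between 8 h and 20 h: Hspa5 had 40119.6 and 36732 at 12 h, 28708 and 27063 at 16 h and 34668 and 33575 at 32 h. Its mean was highest at 4 h, with 110435 and 83469, and its level at 0 h was 42739.6 and 36615. The share of all tested genes lower against the mean of 8 h and 32 h was 1.09%. The median log2 change of the chaperone list was -0.43 against that mean and -0.77 against 8 h alone. Against the mean of 8 h and 32 h, 15 of the 22 were lower, and 9 or 8 when replicate 1 or replicate 2 of 20 h was left out. In the ATF4 amino acid response, another branch of the stress response, 9 of 25 were lower and 1 was higher at 20 h than at 8 h. Over all tested genes 8.42% were lower and 8.52% higher. The list's median log2 change was -0.20. The lower count was 2 to 6 without single libraries (2 without 20 h replicate 2) and 5 with equal totals. Cth, which makes cysteine (log2 change -0.77 ± 0.16, adjusted p = 0.0058), and the stress gene Nupr1 (log2 change -0.46 ± 0.09, adjusted p = 0.0044) were lower. So were Aldh18a1 of proline synthesis (log2 change -0.32 ± 0.06, adjusted p = 0.0021) and the mitochondrial folate enzyme gene Mthfd2 (log2 change -0.23 ± 0.05, adjusted p = 0.0065). Atf4 itself did not pass (log2 change -0.04 ± 0.08, adjusted p = 0.75). The calls of Cth and Mthfd2 were lost without replicate 2 of 20 h (adjusted p = 0.080 and 0.071), and that of Cth without replicate 1 of 8 h (0.056).

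**Figure D4:**
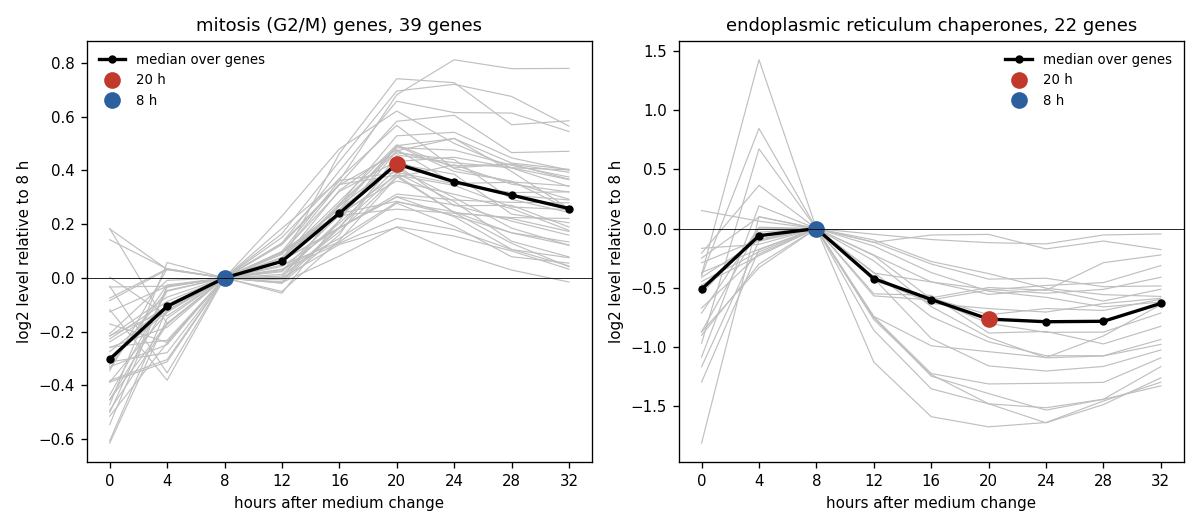
Level at each time relative to 8 h on the log2 scale (vertical axes) against hours after the medium change, 1 grey line for each of the 39 mitosis genes (left) and 22 endoplasmic reticulum chaperone genes (right), each line the mean of 2 libraries. The black line is the median over the genes, with 20 h in red and 8 h in blue. The median of the mitosis genes is highest at 20 h (0.42), while that of the chaperones is -0.77 at 20 h and stays near that level after it.

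Of 21 tested targets of the actin-regulated factors SRF and MRTF, 11 were lower and none higher, against 8.42% of all tested genes lower (7 to 9 without single libraries), with a median log2 change of -0.39. Myh9, non-muscle myosin heavy chain, had 124889 and 126457 normalized reads at 20 h, against 209999 and 194127 at 8 h (log2 change -0.68 ± 0.08, adjusted p = 7.9e-05). Actn1, an actin crosslinker, had 46455 and 45074 normalized reads at 20 h, against 75957 and 67503 at 8 h (log2 change -0.65 ± 0.08, adjusted p = 1.7e-04). Vcl, vinculin of focal adhesions, had 14359.5 and 15754 normalized reads at 20 h, against 21851 and 21933 at 8 h (log2 change -0.54 ± 0.06, adjusted p = 1.1e-04). The 20 h libraries were below the 8 h libraries in all 3, and so they were for Zyx (log2 change -0.32 ± 0.05, adjusted p = 9.1e-04). The call of Myh9 was lost with quantile normalization (-0.25, adjusted p = 0.31). Against the mean of 8 h and 32 h, 3 of the 21 were lower and the median was -0.16, with 11 lower under the replicate block. By that measure 1.09% of all tested genes were lower.

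YAP and TAZ are cofactors that respond to cell shape and density. Of 12 tested targets, 6 were lower and none higher, against 8.42% of all tested genes lower (4 to 6 without single libraries, 9 with the replicate block), with a median of -0.30. Ctgf, a matricellular growth regulator, had 23526 and 20320.5 normalized reads at 20 h, against 52310.2 and 44143 at 8 h (log2 change -1.14 ± 0.12, adjusted p = 5.3e-05). Cyr61, its relative, had 24939 and 23581 normalized reads at 20 h, against 46917 and 40437 at 8 h (log2 change -0.84 ± 0.11, adjusted p = 1.9e-04). Ankrd1, a nuclear cofactor, had 2903 and 2621 normalized reads at 20 h, against 5373 and 4594 at 8 h (log2 change -0.85 ± 0.13, adjusted p = 7.2e-04). The groups did not overlap in any of these 3. At 32 h Ctgf had 13761 and 13081 and Cyr61 20519 and 17909, below their 20 h levels. Against the mean of 8 h and 32 h, 0 of the 12 passed and the list's median was -0.11, with 4 lower under the replicate block.

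Of 29 tested collagen and matrix genes, 11 were lower and none higher, against 8.42% of all tested genes lower (8 to 11 without single libraries, 17 with the replicate block), at a median of -0.31. With quantile normalization 9 were lower and 1 higher. Tnc, tenascin C, had 41009 and 43807 normalized reads at 20 h, against 95242 and 89419.9 at 8 h (log2 change -1.12 ± 0.10, adjusted p = 1.5e-05). Fbn1, fibrillin of microfibrils, had 13116 and 13879 normalized reads at 20 h, against 24802 and 23331 at 8 h (log2 change -0.83 ± 0.06, adjusted p = 6.3e-06). The basement membrane collagen gene Col4a1 (log2 change -0.67 ± 0.07, adjusted p = 3.3e-05) and the fibrillar collagen gene Col5a1 (log2 change -0.69 ± 0.08, adjusted p = 6.7e-05) were lower too. In all 4 genes the groups did not overlap. The share of all tested genes lower against the mean of 8 h and 32 h was 1.09%, beside which the count of this list is given next. Against the mean of 8 h and 32 h, 6 were lower, from 1 without 20 h replicate 1 to 14 with the replicate block.

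Genes that answer TGF-beta and BMP split into both directions, 4 higher and 4 lower of 14, against 8.52% and 8.42% of all tested genes. The higher ones were inhibitors of differentiation and an inhibitory SMAD. Id3 had 4724 and 5805 normalized reads at 20 h, against 2324 and 3145 at 8 h (log2 change 0.95 ± 0.18, adjusted p = 0.0027). Id1 (log2 change 0.73 ± 0.12, adjusted p = 0.0013), Id2 (log2 change 0.90 ± 0.24, adjusted p = 0.019) and Smad6 (log2 change 0.76 ± 0.19, adjusted p = 0.013), all known BMP targets, were also higher. Of the lower ones, Ltbp2 had 3184 and 3775 normalized reads at 20 h, against 6911 and 7328 at 8 h (log2 change -1.04 ± 0.09, adjusted p = 8.5e-06). Inhba, an activin subunit (log2 change -0.70 ± 0.15, adjusted p = 0.0069), and Skil (log2 change -0.38 ± 0.12, adjusted p = 0.048) were lower too. In all of these named genes the groups did not overlap. Without single libraries 2 to 4 passed in each direction.

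For this and the following lists the shares over all tested genes are again 8.52% higher and 8.42% lower. Hypoxia and glycolysis genes had 9 of 31 lower and 1 higher, with a median of -0.07 (7 to 9 lower without single libraries). Ero1l, an oxidase of the endoplasmic reticulum, had 2629.8 and 2732 normalized reads at 20 h, against 5217 and 5221 at 8 h (log2 change -0.96 ± 0.08, adjusted p = 7.4e-06). Ndrg1 (log2 change -0.82 ± 0.10, adjusted p = 1.9e-04), P4ha2, a collagen prolyl hydroxylase (log2 change -0.67 ± 0.08, adjusted p = 8.1e-05), and Adm, adrenomedullin (log2 change -0.52 ± 0.09, adjusted p = 0.0013), were lower. Of 27 immediate early genes, 6 were lower and 2 higher, 2 to 5 and 1 to 2 without single libraries. Dusp5 (log2 change -0.87 ± 0.15, adjusted p = 0.0021), Dusp6 (log2 change -0.29 ± 0.07, adjusted p = 0.0098) and Egr2 (log2 change -0.59 ± 0.13, adjusted p = 0.006) were lower and Fosl2 was higher (log2 change 0.39 ± 0.05, adjusted p = 2.2e-04). Fos (log2 change 0.56 ± 0.34, adjusted p = 0.29) and Egr1 (log2 change 0.48 ± 0.27, adjusted p = 0.25) did not pass. Dusp5 and Dusp6 encode phosphatases of ERK, and the call of Dusp6 was lost without replicate 2 of 20 h (adjusted p = 0.12) or replicate 1 of 8 h (0.073).

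Glucocorticoid receptor targets, of interest because all cells had received dexamethasone, had 4 of 18 higher and 1 lower. Ddit4 (REDD1), an inhibitor of mTORC1, had 2064 and 2102 normalized reads at 20 h, against 1258 and 1155 at 8 h (log2 change 0.79 ± 0.09, adjusted p = 7.9e-05). Cebpd (log2 change 0.89 ± 0.22, adjusted p = 0.014), Pdk4 (log2 change 0.79 ± 0.25, adjusted p = 0.043) and Ampd3 (log2 change 0.47 ± 0.13, adjusted p = 0.024) were higher and Angptl4 lower (log2 change -0.51 ± 0.14, adjusted p = 0.025). Fkbp5 (log2 change 0.06 ± 0.06, adjusted p = 0.55) and Klf9 (log2 change 0.11 ± 0.18, adjusted p = 0.73) did not pass. The higher count was 1 without 20 h replicate 2 or without 8 h replicate 1, when the calls of Cebpd (adjusted p = 0.17 and 0.13) and Ampd3 (0.068 and 0.25) were lost, and 2 without 20 h replicate 1. The call of Angptl4 was lost without any 1 of these 3 libraries (0.087 to 0.22). Interferon-stimulated genes had 5 of 18 higher and none lower, with a median of 0.36 and counts of 2 without either of those libraries. Gbp2, a GTPase, had 262 and 265 normalized reads at 20 h, against 126 and 121 at 8 h (log2 change 1.09 ± 0.22, adjusted p = 0.0046). Ifit2 (log2 change 0.53 ± 0.12, adjusted p = 0.01) and the low gene Ifit1, with 11.8 and 19.1 normalized reads at 20 h, against 5.46 and 1.15 at 8 h (log2 change 2.11 ± 0.56, adjusted p = 0.02), were higher too. The call of Ifit1 was lost with edgeR (adjusted p = 0.0503), with only the libraries compared (0.057), without replicate 2 of 20 h (0.16) and without replicate 2 of 8 h (log2 change 1.31, 0.17). The call of Ifit2 was lost without replicate 1 of 20 h or of 8 h (0.068 and 0.11).

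Cytosolic ribosomal protein genes had 14 of 30 higher, all 30 with a positive change, and a median of 0.21. That count rested on single libraries and on the scaling: it was 0 without 20 h replicate 2, 1 and 8 without replicate 1 or 2 of 8 h, 1 with only the 4 libraries, 27 with quantile normalization and 28 with the replicate block. Rplp1 was the member with the smallest p (log2 change 0.32 ± 0.07, adjusted p = 0.0077), and Rpl13 (log2 change 0.30 ± 0.07, adjusted p = 0.0078), Rpl3 (log2 change 0.26 ± 0.06, adjusted p = 0.0094) and Rpl8 (log2 change 0.24 ± 0.05, adjusted p = 0.01) passed as well. Respiratory chain subunits had 13 of 30 higher and none lower, median 0.18, a count that was 1 without 20 h replicate 2, 3 and 6 without replicate 1 or 2 of 8 h and 22 with the replicate block. Sdhc, of complex II, had 2039 and 2316 normalized reads at 20 h, against 1604 and 1736 at 8 h (log2 change 0.38 ± 0.08, adjusted p = 0.0082). Atp5c1 (log2 change 0.24 ± 0.05, adjusted p = 0.0077) and Uqcrc2 (log2 change 0.21 ± 0.05, adjusted p = 0.01) passed. Without replicate 2 of 20 h the calls of Sdhc (adjusted p = 0.11) and Uqcrc2 (0.056) were lost, as were those of Sdhc (0.079) and Atp5c1 (0.051) without replicate 1 of 8 h and that of Uqcrc2 (0.059) without replicate 2 of 8 h. Ribosome biogenesis genes had 4 of 25 lower and none higher, 0 without 20 h replicate 2 or without 8 h replicate 1 and 13 with the replicate block. Rrp12 (log2 change -0.41 ± 0.13, adjusted p = 0.038), Gnl3 (log2 change -0.24 ± 0.06, adjusted p = 0.013), Wdr43 (log2 change -0.23 ± 0.07, adjusted p = 0.031) and Rrs1 (log2 change -0.20 ± 0.06, adjusted p = 0.029) were the 4. Their number was 1 with equal totals or with only the libraries compared, and 2 with quantile normalization. With equal totals the calls of Rrp12 (adjusted p = 0.073), Wdr43 (0.10) and Rrs1 (0.11) were lost.

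The other lists had few members past the threshold. NRF2 antioxidant targets had 4 of 20 higher and 2 lower. The ferritin genes Ftl1, with 14104 and 15505 normalized reads at 20 h, against 11177 and 11007 at 8 h (log2 change 0.41 ± 0.06, adjusted p = 3.4e-04), and Fth1 (log2 change 0.38 ± 0.07, adjusted p = 0.0037), which store iron, were higher, as were Sod1 (log2 change 0.21 ± 0.05, adjusted p = 0.015) and Gpx1 (log2 change 0.27 ± 0.08, adjusted p = 0.027). The higher count was 2 without replicate 2 of 20 h and 7 with equal totals. The lower count was 0 without replicate 2 of 20 h, without either 8 h library and with equal totals, and 5 with the replicate block. The call of Sod1 was lost without either 20 h library or replicate 2 of 8 h (adjusted p from 0.053 to 0.096), and that of Gpx1 without replicate 2 of 20 h (0.25) or replicate 1 of 8 h (0.23). Among 5 alpha-arrestins and glucose-responsive genes, Txnip (log2 change 0.82 ± 0.23, adjusted p = 0.025) and Arrdc3 (log2 change 0.66 ± 0.18, adjusted p = 0.022) were higher and Arrdc2 lower (log2 change -0.41 ± 0.09, adjusted p = 0.01), with no member higher or lower without 20 h replicate 2 or without 8 h replicate 1. NF-kB and cytokine genes had 3 of 23 lower: Ptgs2 (COX-2; log2 change -0.91 ± 0.23, adjusted p = 0.016), the chemokine gene Cxcl12 (log2 change -0.72 ± 0.14, adjusted p = 0.004) and Tnfaip3 (log2 change -0.72 ± 0.21, adjusted p = 0.032), of which only Cxcl12 passed without 20 h replicate 2 or without 8 h replicate 1. Lysosome and autophagy genes had 2 of 28 higher, among them Ulk1 (log2 change 0.21 ± 0.06, adjusted p = 0.031), and 2 lower (Atp6v1h, log2 change -0.29 ± 0.05, adjusted p = 0.0015; Sqstm1, log2 change -0.28 ± 0.06, adjusted p = 0.0054). The higher count was 0 without replicate 2 of 20 h or of 8 h and with only the libraries compared, and 6 with the replicate block. The call of Ulk1 was also lost without replicate 1 of 8 h (adjusted p = 0.16), and that of Sqstm1 there too (0.053).

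Sterol synthesis genes had 1 of 23 lower, Pmvk (log2 change -0.51 ± 0.09, adjusted p = 0.0021), and 1 higher, Srebf2 (log2 change 0.17 ± 0.06, adjusted p = 0.05), the second just under the threshold. Hmgcs1 was listed at 0 in every library. Fatty acid synthesis genes had 1 of 14 higher, Insig2 (log2 change 0.27 ± 0.07, adjusted p = 0.017), heat shock proteins 1 of 17 higher, Hspa4l (log2 change 0.40 ± 0.10, adjusted p = 0.017), and proteasome subunits 1 of 26 higher, Psma4 (log2 change 0.21 ± 0.06, adjusted p = 0.019), and 1 lower, Psmc6 (log2 change -0.17 ± 0.06, adjusted p = 0.046). Insig2 and Psma4 passed in no fit that left out a library. With equal totals 6 proteasome subunits were higher and 0 lower, and with quantile normalization 4 and 0, and the call of Psmc6 was lost in 8 fits (adjusted p up to 0.30). The call of Srebf2 was lost in 7 fits (up to 0.41) and that of Hspa4l without any library but replicate 2 of 20 h (0.065 to 0.12). Of 13 clock kinases, ligases and cofactors, Nono, a partner of the PER proteins, was higher (log2 change 0.19 ± 0.05, adjusted p = 0.016), and Csnk1e, the casein kinase that phosphorylates PER (log2 change -0.22 ± 0.06, adjusted p = 0.022), and Prkaa1, a subunit of AMPK (log2 change -0.26 ± 0.08, adjusted p = 0.032), were lower. Csnk1e and Prkaa1 did not pass with equal totals (adjusted p = 0.082 and 0.066) or without replicate 2 of 20 h (0.18 and 0.30), and none of the 3 passed with only the libraries compared (0.085 to 0.16). Nono passed in 1 of the 4 fits that left out a library.

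**Figure D5:**
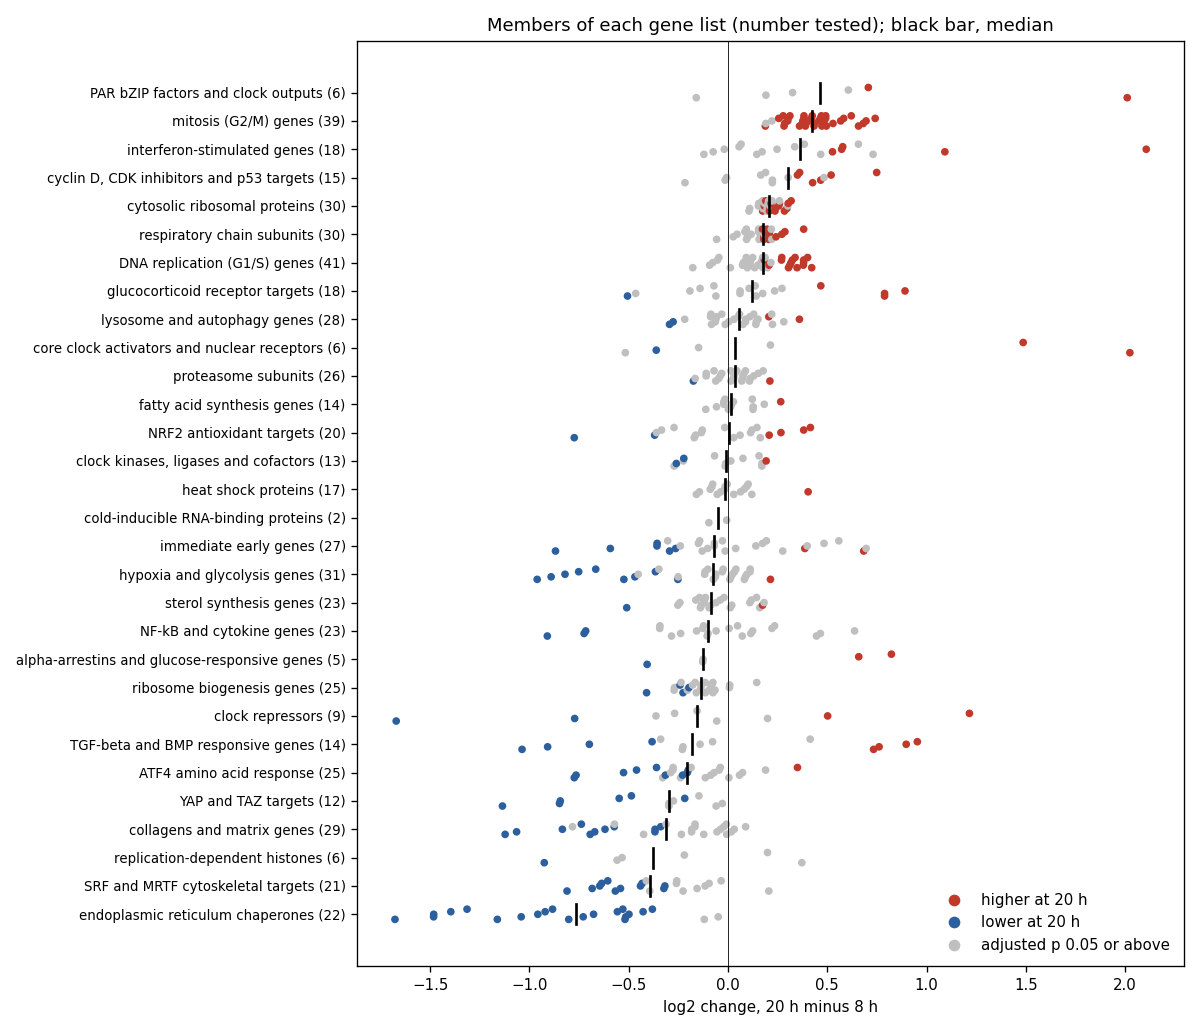
Log2 change at 20 h minus 8 h (horizontal axis) of the tested members of each gene list other than the cell type markers (rows, with the number tested), 1 point a gene, red if higher at 20 h, blue if lower and grey at an adjusted p of 0.05 or above, with a black bar at the list's median. The mitosis list lies to the right of 0 throughout (37 of 39 higher) and the endoplasmic reticulum chaperones to the left (20 of 22 lower), while most other lists straddle 0.

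By size of change, clock genes shared the top of the table with genes of other roles. Pappa2, a protease of insulin-like growth factor binding proteins, had 182 and 199 normalized reads at 20 h, against 44.6 and 62.1 at 8 h (log2 change 1.83 ± 0.26, adjusted p = 4.9e-04). Bmf, a BH3-only regulator of cell death, had 296 and 398 normalized reads at 20 h, against 126 and 169 at 8 h (log2 change 1.23 ± 0.24, adjusted p = 0.0039). Gas1, known as a growth arrest gene, had 3064 and 4345 normalized reads at 20 h, against 1419.6 and 2201 at 8 h (log2 change 1.05 ± 0.32, adjusted p = 0.036). In all 3 both 20 h libraries were higher, which the rule for naming these genes required. Pappa2 had 355 and 511 at 32 h and Bmf 553 and 689.7, above their 20 h levels. The others among the 12 highest were Nr1d2, Nr1d1, Per3, Atoh8 (log2 change 1.25 ± 0.37, adjusted p = 0.032), Akr1c14 (log2 change 1.17 ± 0.35, adjusted p = 0.035), Abca8b (log2 change 1.10 ± 0.14, adjusted p = 1.9e-04), C1qtnf1 (log2 change 1.10 ± 0.12, adjusted p = 8.1e-05), Gbp2 and Mxd3 (log2 change 1.03 ± 0.12, adjusted p = 1.2e-04). The calls of Atoh8, Akr1c14 and Gas1 were lost without 20 h replicate 2 (adjusted p = 0.21, 0.20 and 0.27) or without 8 h replicate 1 (0.28, 0.31 and 0.27), and that of Bmf without 20 h replicate 2 (0.060).

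Sema7a, a membrane-anchored semaphorin, was the lowest of the passing genes with a mean of at least 50. It had 943 and 707 normalized reads at 20 h, against 6033 and 4271 at 8 h (log2 change -2.63 ± 0.30, adjusted p = 7.9e-05), a 6.21-fold fall. Groups without overlap were part of the rule by which these lowest genes were named. Serpinb2 (PAI-2), an inhibitor of plasminogen activators, had 172 and 103 normalized reads at 20 h, against 697 and 531 at 8 h (log2 change -2.18 ± 0.42, adjusted p = 0.0034). Lrrc15, a membrane protein of activated fibroblasts, had 33.6 and 32.5 normalized reads at 20 h, against 167 and 124 at 8 h (log2 change -2.09 ± 0.26, adjusted p = 1.6e-04). For each of these the 32 h libraries were lower still, at 531 and 441 for Sema7a, 56.4 and 44.5 for Serpinb2 and 31 and 22.2 for Lrrc15. The remaining lowest were Hspa5 and Cry1, Sema4f (log2 change -1.92 ± 0.45, adjusted p = 0.012), Apol8 (log2 change -1.60 ± 0.26, adjusted p = 0.0012), Krt8 (log2 change -1.60 ± 0.17, adjusted p = 6.4e-05) and Cgref1 (log2 change -1.57 ± 0.40, adjusted p = 0.016). With them came Lman1l (log2 change -1.56 ± 0.20, adjusted p = 1.8e-04), the myosin chaperone gene Unc45b (log2 change -1.56 ± 0.19, adjusted p = 1.4e-04) and Col5a3 (log2 change -1.51 ± 0.26, adjusted p = 0.0017). Without 20 h replicate 2 the calls of Serpinb2 (adjusted p = 0.053), Sema4f (0.12) and Cgref1 (0.15) were lost, as were those of Sema4f (0.13) and Cgref1 (0.075) without replicate 1 of 8 h and that of Cgref1 (0.066) without replicate 2 of 8 h.

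Of the 17 tested markers of 6 other cell types 5 passed, against 16.9% of all tested genes, and several defining markers were at 0. The 12 fibroblast markers had summed levels of 895308 and 1016520 normalized reads at 20 h, against 1092910 and 1048780 at 8 h. The 11 that were tested had a median log2 change of -0.02, with 5 positive and 6 negative changes. Of these 11, 4 were lower: Fn1 (log2 change -0.37 ± 0.08, adjusted p = 0.0097), P4hb (log2 change -0.38 ± 0.07, adjusted p = 0.0021), Dcn (log2 change -0.62 ± 0.14, adjusted p = 0.0075) and Thy1 (log2 change -0.35 ± 0.10, adjusted p = 0.034). The count was 1 without replicate 1 of 8 h and 2 without replicate 1 of 20 h, and with quantile normalization 2 were lower and 1 higher, with Fn1 at -0.15 (adjusted p = 0.28). The call of Thy1 was lost in 7 fits (up to 0.24). P4hb is also counted in the chaperone list, and Fn1 and Dcn in the matrix list. Epithelial markers had summed levels of 226 and 239 at 20 h, against 648 and 494 at 8 h. Of the 3 that were tested, Krt8 (log2 change -1.60 ± 0.17, adjusted p = 6.4e-05) and Krt18 (log2 change -1.40 ± 0.23, adjusted p = 0.0013), the keratins of simple epithelia, were lower. Krt14 had a positive change and did not pass (log2 change 0.20 ± 0.20, adjusted p = 0.54). Esrp1, a splicing factor of epithelial cells, was at 0 in these libraries. Skeletal muscle markers summed to 1535 and 1779 at 20 h, against 4414 and 4192 at 8 h, nearly all of it Acta1, with 1438 and 1699.7 normalized reads at 20 h, against 4353 and 4130.0 at 8 h (log2 change -1.44 ± 0.12, adjusted p = 8.5e-06). Des was higher (log2 change 0.76 ± 0.22, adjusted p = 0.032), a call lost in 6 fits (adjusted p up to 0.20), and the defining factors Myod1 and Myf5 were at 0. Neural markers summed to 559.8 and 555.7 at 20 h, against 893.6 and 785.1 at 8 h, with Tubb3 lower (log2 change -0.78 ± 0.13, adjusted p = 0.0012) and Rbfox3 and Olig2 at 0. Leukocyte (4 tested), endothelial (2) and adipocyte (2) markers had no member past the threshold, and Emr1, Cd3e, Tyrobp, Kdr, Cldn5, Cfd, Lep and Cebpa were at 0 in the 20 h and 8 h libraries. The part of these markers in the other results was not tested.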

How the data were processed

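RNA of NIH3T3 cells was sequenced in 18 libraries, grouped by the hour in the labels. The deposited signal values are read counts per gene divided by 1 size factor per library, rounded to 2 decimals. TopHat, HTSeq, DESeq and the build mm9 are named, without roles or versions, per the submitters' processing notes, and the annotation is not given in the sources used here. Every value was a whole number of reads within 0.02 once divided by its library's step (largest distance 0.00845 reads), and the factors ran from 0.728 to 1.16. The libraries held 25.4 to 38.9 M reads.

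Genes with a mean of at least 10 were tested in limma 3.58.1 (R 4.3.3) on log2(value + 1), with 1 mean per time over all 18 libraries, a variance trend, 2-sided tests and Benjamini-Hochberg adjustment over 12393 genes at a threshold of 0.05. The contrasts were 20 h with 8 h, 20 h with the mean of 8 h and 32 h, and the difference of the first from 24 h against 12 h and from 16 h against 4 h. Alternatives were pseudocounts of 0.5 and 5, no filter or a mean of at least 50, equal totals, quantile normalization, no variance trend, a replicate block, count tests of the recovered reads (edgeR 4.0.16, DESeq2 1.42.0), only the libraries compared, and leaving out each library. Where 1 library of a time remained, its spread was taken to be that of the other times. The fits were tested on simulated data. Figures were drawn with matplotlib 3.10.9.

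Replicate numbers pair the libraries: the correlation of their deviations from the time means exceeded 0.1 for each of the 36 pairs of times (0.230 to 0.502, and 0.320 for 20 h with 8 h), with no source given in the labels.

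The 37 gene lists held 696 genes, of which 692 were in the table and 613 were tested. Named genes were the clock and cold-inducible lists, the 12 highest and 12 lowest passing genes with a mean of at least 50 and no overlap, up to 4 members of each other list with the smallest p, the 6 highest and 6 lowest against the mean of 8 h and 32 h, and up to 4 each way in each difference. Other list members named in the text were chosen after their values were seen. The comparison, lists and rules were chosen with earlier results of these data known. Promoters are from RefSeq. Some of the genes these rules name are not reported here.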

Additional observations from a re-analysis of the deposited data

Results flagged for a closer look

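The change at 20 h against 8 h differed from that at 24 h against 12 h in 9 genes, by a test of the difference itself in limma. The difference on the log2 scale was -3.44 for Per2, -2.46 for Cry1, -1.64 for Cry2, -1.56 for Per3, -1.46 for Tef, -1.26 for Bhlhe40, 0.71 for Masp1 and 0.68 for Tcf19, and Hspa5 was the ninth gene. The same test against the change at 16 h against 4 h found 349 genes. There the clock genes differed by 3.65 (Dbp), 2.90 (Per2), 2.62 (Per3), 2.31 (Gm129), 2.07 (Tef), 2.01 (Nr1d2), 1.72 (Bhlhe40), 1.55 (Cry2), 1.55 (Nr1d1), 1.01 (Cry1), 0.79 (Per1) and -0.87 (Arntl). Outside the clock, Nppb differed by 2.17, Cdh18 by -1.77, Tlr3 by -1.28, Sema5a by -1.16 and Eml6 by -1.11.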

How the results depend on the processing

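Of the 123 named genes past the threshold at 20 h against 8 h, 66 stayed past it in the same direction in every alternative that tested them (all 15, except that Krt18 was not tested at a mean of at least 50), among them Nr1d1, Nr1d2, Per1, Per3, Cry1, Bhlhe40, Tef, Hspa5, Cdca3 and Sema7a. The number of genes that differed was 2114 with edgeR and 2127 with DESeq2, 1309 with only the libraries compared (600 higher) and 4047 with the replicate block (2047 higher, 2000 lower), and equal totals gave 1681 higher and 673 lower. Changes of at least 2-fold numbered 20 higher with DESeq2, and 15 higher and 42 lower with a mean of at least 50. Against the mean of 8 h and 32 h the count was 463 with DESeq2, 115 with only the libraries compared and 1333 with the replicate block. The count of genes differing from the 24 h against 12 h change was 39 with DESeq2 and 148 with the replicate block. For the 16 h against 4 h change it was 230 without a variance trend, 114 with only the libraries compared and 1519 with the replicate block. Leaving out single libraries gave 751 to 1558 genes at 20 h against 8 h, 351 to 755 higher and 400 to 803 lower, 18 to 49 at least 2-fold higher and 46 to 76 at least 2-fold lower. The same gave 28 to 184 genes against the mean of 8 h and 32 h, 6 to 12 for the first difference of intervals and 120 to 276 for the second. Genes near 0 changed sign without passing: Cirbp was at 0.050 with equal totals and ran from -0.093 to 0.080 without single libraries, Gm129 from -0.32 to 0.21, Bhlhe41 from -0.33 to 0.022 and Rbm3 from -0.20 to 0.0096. The causes were not tested, beyond the fewer samples in the fits that leave libraries out. The replicate block lost no call of a named gene at 20 h against 8 h, and the calls it added are given with their genes. At 27.7 to 34.7 M reads and 2 libraries a time, low genes such as Dbp rest on few reads.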
